A study of Mus musculus with 4 samples.

Results

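The genes described here are 33 components of the protein folding and quality control machinery of the endoplasmic reticulum (ER), the compartment in which secreted and membrane proteins are made. They were taken as every non-control probe whose gene name, or whose accession's symbol, is one of the listed genes. All 33 had a probe among 31709 genes on the array, with 41 probes in all, and all 33 were among the 19685 genes bright enough to test. By role they comprise 11 chaperones and co-chaperones, 6 disulfide and prolyl isomerase enzymes, 9 genes of ER-associated degradation (ERAD), 2 translocon subunits and 5 stress sensors or transducers.

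Liver RNA of 4 male IlrunKO mice, which lack Ilrun in the whole body, was compared with liver RNA of 4 male wild-type (WT) mice. Both groups were C57BL/6 mice on a chow diet, and livers were taken after a fast of 4 h. Each of 4 two-colour arrays held 1 IlrunKO and 1 WT sample, and the dyes were swapped: IlrunKO carried Cy5 (red) on arrays 1 and 2, and Cy3 (green) on arrays 3 and 4. The sources used here do not give the age of the mice, the part of Ilrun that was removed or whether livers were pooled. The p-values therefore measure only the spread between these samples.

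Hepatocytes secrete most plasma proteins and are rich in ER. Proteins enter the ER through the Sec61 channel, fold with the help of BiP (Hspa5), GRP94 (Hsp90b1) and the lectins calnexin (Canx) and calreticulin (Calr), and receive disulfide bonds from enzymes such as Pdia3 and Pdia6. Proteins that fail to fold are recognised by Edem lectins, moved back through membrane complexes around Sel1l, Syvn1 and the derlins, and degraded by the proteasome. The unfolded protein response adjusts this machinery: Ern1 (IRE1), Eif2ak3 (PERK) and Atf6 sense unfolded proteins, and XBP1 and ATF6 then switch on chaperone and ERAD genes through short promoter motifs named ER stress response elements.

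Many of the genes carry such an element. Because these elements are known as switches of genes of this kind, the shares below are no independent finding. RefSeq promoter windows (250 bases before to 50 after the annotated start, GRCm38.p6) were at hand for 28 of the 33 genes and for 27025 genes in all. The element ERSE, searched as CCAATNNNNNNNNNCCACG on both strands, lay in 10 of the 28 windows (35.7%), against 0.137% of all genes. ERSE-II, searched as ATTGGNCCACG, lay in 2 of the 28, Dnajb11 and Herpud1, against 0.0444% of all genes. The UPR element, searched as TGACGTGG, lay in 0 of the 28, and in 0.714% of all genes. No ERSE or ERSE-II match overlapped a match of another kind in the windows shown. The stretches below are examples, each from a gene whose levels or ratios are described further on. The motif's fixed letters are in capitals, on the gene's own strand, 5′ to 3′, and a match read from the opposite strand begins with CGTGG.
Hspa5, chr2:34772013-34772055, + strand, motif at -65 from the start: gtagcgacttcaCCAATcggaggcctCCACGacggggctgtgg
Dnajc3, chr14:118937815-118937857, + strand, motif at -105: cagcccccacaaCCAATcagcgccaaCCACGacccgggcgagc
Creld2, chr15:88819508-88819550, + strand, motif at -126: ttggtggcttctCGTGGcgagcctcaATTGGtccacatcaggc
Ero1lb, chr13:12565670-12565712, + strand, motif at -201: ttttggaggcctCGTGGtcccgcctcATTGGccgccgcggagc
Syvn1, chr19:6046520-6046562, + strand, motif at -44: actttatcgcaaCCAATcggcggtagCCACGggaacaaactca
Herpud1, chr8:94386368-94386396, + strand, motif at -52: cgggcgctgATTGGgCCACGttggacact
Dnajb11, chr16:22857843-22857871, + strand, motif at 7: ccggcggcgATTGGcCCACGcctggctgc
Hsp90b1 carried 2 ERSE matches, and Calr, Canx, Pdia6 and Derl3 carried 1 each. A match describes letters only and says nothing of binding in these livers.

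The share of the 39429 probes that stood well above background ran from 60.1% to 67.4% over the 8 samples, and every probe of the 33 genes did so in all 8. Ilrun itself had log2 ratios of IlrunKO over WT of -4.12, -4.11, -4.04 and -4.56 on arrays 1 to 4 by its brighter probe, with an adjusted p of 0.00352 (limma). Its dimmer probe averaged -2.15 ± 0.34. The number of arrays limits the precision, and all arrays shared 1 slide and 1 scan. Over all tested genes, 261 passed an adjusted p of 0.05 (1.33%), 139 higher in IlrunKO (0.706%) and 122 lower (0.62%). That count was 450 without array 1, and 1 without array 3 and without array 4.

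No gene of the ER set passed that threshold, in either direction, in the fit over all genes (limma, Benjamini-Hochberg). At an unadjusted p of 0.05, 8 of 33 passed, or 24.2%, against 20.5% of all genes. Of these, 7 were lower in IlrunKO (Dnajc3, Sel1l, Derl1, Derl2, Sec61a1, Atf6 and Eif2ak3), where the share over all genes was 9.87%, and Atf6b alone was higher, where it was 10.6%. Mean log2 ratios ran from -0.52 (Sel1l) to 0.50 (Derl3), 26 of the 33 were below 0, and their median was -0.145, against -0.00143 over all genes. Modelling the 8 samples as separate channels with the array as a block called 5 of the 33 (Derl2, Derl1, Sel1l and Atf6 lower, Atf6b higher) with 12.7% of all genes called in that model.

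Most of the 33 genes shared their behaviour within each array. On array 1, 28 of 33 had a log2 ratio below 0, on array 2, 29, and on array 3, 30. On array 4, only 7 were below 0 and 26 were above. Over all genes the shares below 0 were 48.5%, 47.1%, 53.9% and 51.3%. The median ratio of the 33 genes was -0.230, -0.209 and -0.331 on arrays 1 to 3 and 0.230 on array 4, while the median of all genes stayed between -0.0173 and 0.0131. The ratio on array 4 lay above the mean of the other arrays for 33 of 33 genes, against 47.8% of all genes, by a median of 0.478 on the log2 scale. For 18 of 33 genes (54.5%) the ratio was below 0 on arrays 1, 2 and 3 and above 0 on array 4, a pattern that 6.78% of all genes had. Genes of one sample are not independent replicates, and these counts describe 4 pairs of livers.

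**Figure D1:**
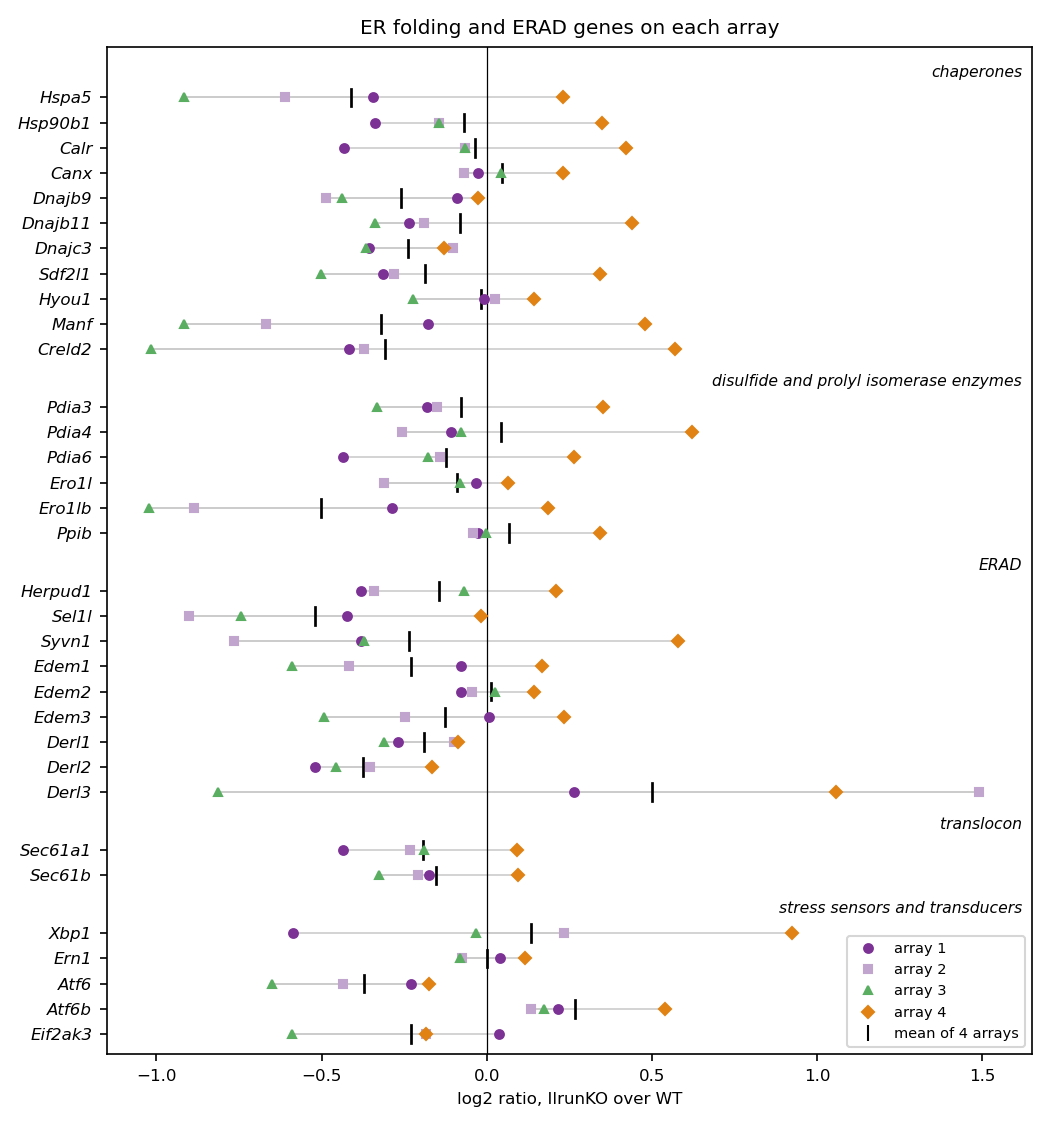
Log2 ratio of IlrunKO over WT (horizontal axis) for each of the 33 genes (rows, grouped by role) on each of 4 arrays (coloured symbols), with the mean of the 4 arrays as a black bar. The symbols of array 4 lie to the right of 0 for 26 genes, and those of arrays 1 to 3 lie to the left for 28, 29 and 30 genes.

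The level in each sample was then set against the gene's own mean over the 8 samples. The median deviation of the 33 genes was -0.145, -0.0469, -0.139 and -0.0159 (log2) in the IlrunKO samples of arrays 1 to 4, against 0.0229, 0.203, 0.163 and -0.226 in the WT samples. By these medians the IlrunKO samples lay within a narrower band, the WT sample of array 4 lay below all others, and the WT samples of arrays 2 and 3 were the highest. The WT sample of array 4 had the lowest WT level in 25 of 33 genes (75.8%), against 26.3% of all genes. It was the lowest for 10 of 11 chaperones, 6 of 6 disulfide and isomerase enzymes, 6 of 9 ERAD genes, 1 of 2 translocon subunits and 2 of 5 sensors. Medians of the SD over samples were 0.168 in IlrunKO and 0.215 in WT, and the SD was larger in WT for 20 of 33 genes (60.6%), against 48.0% of all genes. This lay mainly in the chaperones, where the SD was larger in WT for 9 of 11. In the other roles it was so for 3 of 6 disulfide and isomerase enzymes, 4 of 9 ERAD genes, 1 of 2 translocon subunits and 3 of 5 sensors. In a liver sample, less of a transcript per cell and fewer cells that carry it cannot be told apart.

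**Figure D2:**
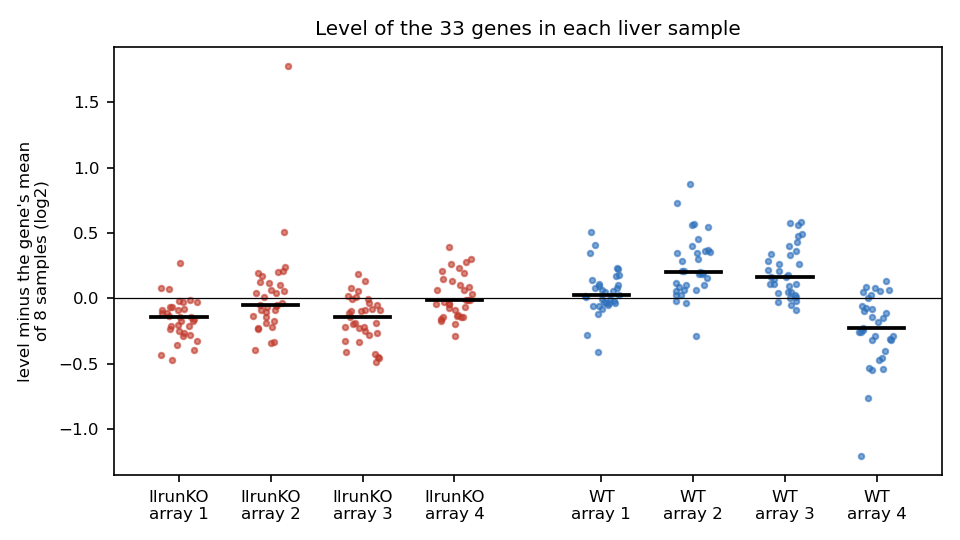
Normalised log2 level of each of the 33 genes minus that gene's mean over the 8 samples (vertical axis), by sample, with IlrunKO in red and WT in blue and horizontal bars at the medians. The WT sample of array 4 has the lowest median (-0.226) and the WT sample of array 2 the highest (0.203).

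Without array 4, 20 of 33 genes (60.6%) had an unadjusted p under 0.05 (limma), against 16.4% of all genes. In that fit 31 of 33 were below 0, against 51.1% of all genes. Array 4 was already known from these same ratios as the one on which most of the genes turned, and genes of one sample are not independent. These counts are thus no separate evidence. Leaving out arrays 1, 2 and 3 in turn gave 6, 6 and 5 of 33 (18.2%, 18.2% and 15.2%), against 18.1%, 16% and 14% of all genes. The median ratio without array 4 was -0.259, and no gene passed after adjustment (smallest adjusted p 0.125, Creld2). Without array 3, the median was 0.0231 and 18 of 33 genes were above 0. Both values come from fits that keep the dye term, in which the array left alone in its dye orientation weighs as much as the other pair. Without the dye term, leaving out array 3 gave a median of -0.0923 with 22 of 33 genes below 0, and leaving out array 4 gave -0.246 with 31 below 0. By orientation, the median ratio was -0.228 with IlrunKO in Cy5 and -0.0407 with IlrunKO in Cy3.

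Cell type markers were read in the same samples. The 10 hepatocyte markers were above background in all 8 samples, with median ratios of -0.0571, 0.134, -0.447 and -0.447 on arrays 1 to 4. Their summed level (log2) was 19.89, 19.97, 19.33 and 19.40 in IlrunKO, against 19.72, 19.68, 20.12 and 20.08 in WT. IlrunKO was thus the higher on arrays 1 and 2, where it carried Cy5, and the lower on arrays 3 and 4, where it carried Cy3. Alb (albumin) averaged 0.37 with IlrunKO in Cy5 and -1.09 with IlrunKO in Cy3. In the WT sample of array 4, which carried Cy5, only 1 of these 10 was at its lowest WT level. As their summed WT level was higher on both arrays with WT in Cy5, this count cannot tell the hepatocyte content of that sample. Macrophage markers had median ratios of -0.227, 0.887, 0.463 and 0.485 (9 of 10 above 0 on average, summed level 14.8 to 15.5 in IlrunKO and 14.5 to 15.1 in WT). Stellate cell markers were below 0 on average in 10 of 10, with a median of -0.326 (summed level 14.6 to 15.1 in IlrunKO and 15.2 to 15.3 in WT). Of the adipocyte markers, 5 of 8 were bright enough to test. Of these 5, 4 were above 0 on all 4 arrays, against 11.7% of all genes, and the list's median was 1.04. The 2 that passed, against 0.706% of all genes passing as higher, were Cfd and Adrb3. Cfd rose by 3.82 ± 1.22 and Adrb3 by 1.04 ± 0.34 (adjusted p 0.0481 and 0.0307, limma). These calls were lost without array 3 (0.159 and 0.113) and without array 4 (0.124 and 0.119), that of Cfd also without array 1 (0.0521). Cfd kept its call in 5 of 17 alternatives and Adrb3 in 9 of 17, the losses including median centring (0.184 and 0.217) and, for Cfd, Agilent's processed signals (0.0888). Fabp4, a fatty acid carrier of adipocytes and other cells, had a mean ratio of -0.11 ± 0.15, and Adipoq, Plin1 and Lep were not well above background in any sample. Plasma and B cells and the pancreatic acinus, both rich in ER, gave no call among 7 and 4 markers tested, and 5 of 11 acinar markers were above background in no sample. Cholangiocyte and endothelial markers gave no call either, among 4 and 10 tested. Below 0 on average were 2 of 4 cholangiocyte, 9 of 10 endothelial and 9 of 10 hepatocyte markers, against 50.6% of all genes. The part of these cell types in the ER ratios was not tested.

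Among the chaperones, 10 of 11 had a mean ratio below 0 and the median was -0.188. Hspa5 encodes BiP, the ER's main Hsp70 and the standard marker of the unfolded protein response. It read 14.34, 14.55, 14.28 and 14.43 (normalised log2 level) in the IlrunKO samples of arrays 1 to 4, against 14.69, 15.16, 15.19 and 14.20 in the WT samples. The 4 IlrunKO values lay within 0.3 of each other, and the WT values spread over almost 1 log2 unit, with array 4 below every IlrunKO sample. The log2 ratio was -0.35, -0.61, -0.92 and 0.23, averaging -0.41 ± 0.49 (SD over 4 arrays, as throughout), and the adjusted p was 0.322 (limma).

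Dnajc3 (p58IPK), a BiP co-chaperone that also restrains PERK, was lower in IlrunKO on every array, with ratios of -0.36, -0.10, -0.37 and -0.13. Its levels were 10.69, 11.33, 10.94 and 11.08 in IlrunKO, against 11.05, 11.43, 11.31 and 11.21 in WT, so the groups overlapped although every pair went the same way. The mean ratio was -0.24 ± 0.14 with an adjusted p of 0.170. Dnajb9 (ERdj4), a co-chaperone that recruits BiP to IRE1, was also below 0 on all 4 arrays, at -0.09, -0.49, -0.44 and -0.03. It read 10.14, 10.07, 10.17 and 9.92 in IlrunKO, against 10.23, 10.56, 10.61 and 9.95 in WT, and averaged -0.26 ± 0.24 (adjusted p 0.251). A dimmer probe of Dnajb9 averaged -0.10 ± 0.48 and was above 0 on arrays 3 and 4.

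The stress-induced proteins Manf and Creld2 had the largest SD over arrays among the chaperones (0.614 and 0.656), above that of Hspa5. Manf, which binds BiP, had ratios of -0.18, -0.67, -0.92 and 0.48, and Creld2, which is retained in the ER or secreted under stress, had -0.42, -0.37, -1.02 and 0.57. Sdf2l1, part of the BiP and ERdj3 cycle, had -0.31, -0.28, -0.50 and 0.34. All 3 had the same shape, lower in IlrunKO on arrays 1 to 3 and higher on array 4. Hsp90b1 had ratios of -0.34, -0.15, -0.14 and 0.35, and Calr had -0.43, -0.07, -0.07 and 0.42. Canx (mean 0.04 ± 0.13) and Hyou1, a large Hsp70-like exchange factor for BiP (mean -0.02 ± 0.15), had means near 0, that of Hyou1 being -0.132 with Agilent's processed signals.

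Dnajb11 (ERdj3), a secreted BiP co-chaperone, gave different answers by its 2 probes, which lie 7545 bases apart on chromosome 16 (mm9). The brighter probe, at chr16:22872067-22872126, had ratios of -0.23, -0.19, -0.34 and 0.44 and a mean of -0.08 ± 0.35. The dimmer probe, at chr16:22879612-22879671, had -1.10, -0.998, -0.96 and -1.24, a mean of -1.07 ± 0.12. When every probe was fitted, the dimmer probe passed with an adjusted p of 0.0272 over 24387 probes, of which 1.48% passed, and with the probes of each gene averaged Dnajb11 was the one gene of the 33 that passed (-0.58, adjusted p 0.0373, 1.14% of all genes passing). The dimmer probe was 3.68 log2 units below the brighter one in mean signal, was above background in all 8 samples, and did not share the turn of the other ER genes on array 4. Without array 3 and without array 4, chosen after seeing the data, its adjusted p was 0.0891 and 0.0984 at ratios of -1.14 and -1.01. The first 30 bases of each probe are shown, since the result depends on which of them is read; exon and UTR were not assigned, the annotation at hand being of another build.
Dnajb11 brighter probe: tctcagaggatgcccgagcaaaggaaacca
Dnajb11 dimmer probe: gctacaagggaggttaaaggttaaagcgtt

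**Figure D3:**
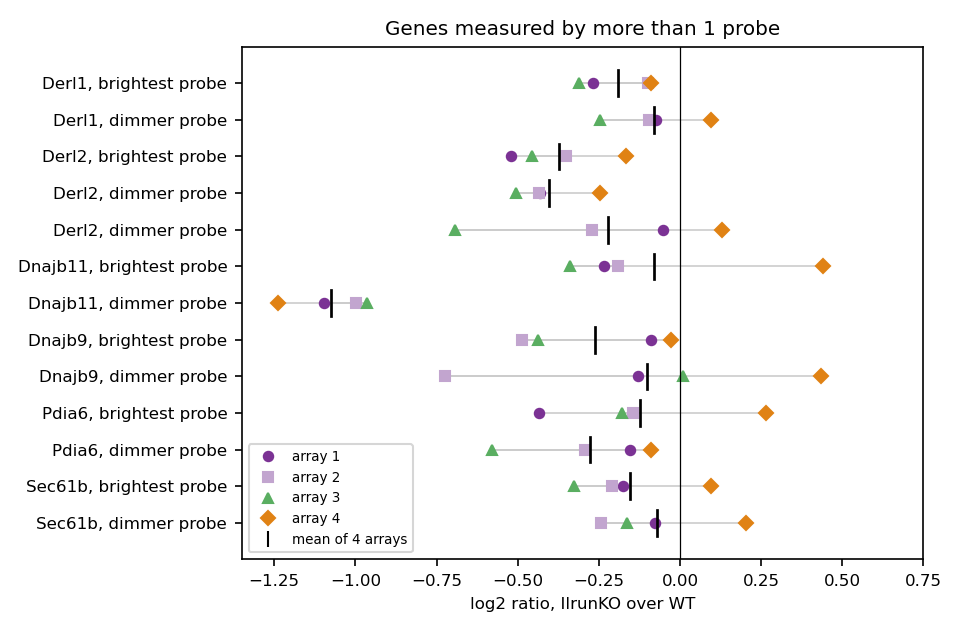
Log2 ratio of IlrunKO over WT (horizontal axis) for each probe of the 6 genes that had more than 1 probe under their own name (rows, brightest probe of each gene first), by array (coloured symbols), with black bars at the means. The dimmer Dnajb11 probe lies near -1 on all 4 arrays, apart from every other probe.

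The 6 oxidative folding and prolyl isomerase enzymes were below 0 on arrays 1, 2 and 3 in 6 of 6 cases and above 0 on array 4 in 6 of 6. Their median ratios were -0.144, -0.203, -0.130 and 0.304. Ero1lb (Ero1b in RefSeq), an oxidase that recharges protein disulfide isomerases, had the largest mean difference, at -0.50 ± 0.56 (adjusted p 0.294). It read 10.23, 10.06, 9.95 and 10.36 in IlrunKO, against 10.52, 10.95, 10.98 and 10.18 in WT, and on array 4 the WT sample was again the lower of the pair. Its paralogue Ero1l (Ero1a) read 6.84, 6.64, 6.93 and 6.84 in IlrunKO, against 6.87, 6.95, 7.02 and 6.78 in WT, a mean ratio of -0.09 ± 0.16 (adjusted p 0.524). That ratio was -0.152 without background correction and -0.335 with Agilent's processed signals.

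The disulfide isomerases were close to 0 on average because array 4 offset the others. Pdia3 (ERp57), the partner of calnexin and calreticulin, had ratios of -0.18, -0.15, -0.33 and 0.35. Pdia4 (ERp72) had -0.11, -0.26, -0.08 and 0.62, and Pdia6 (P5), which is known to attenuate IRE1, had -0.43, -0.14, -0.18 and 0.27. A dimmer Pdia6 probe was below 0 on all 4 arrays, averaging -0.28 ± 0.22 (adjusted p 0.195 over all probes). Ppib (cyclophilin B), a prolyl isomerase that acts on procollagen, had -0.03, -0.04, -0.004 and 0.34.

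**Figure D4:**
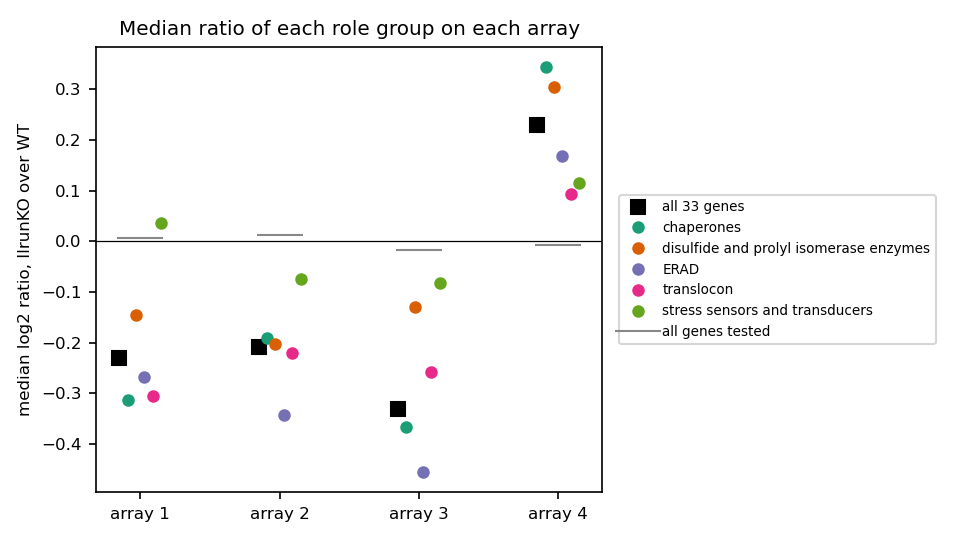
Median log2 ratio of IlrunKO over WT (vertical axis) of each role group and of all 33 genes on each array (horizontal axis), with the median of all tested genes as grey bars. On array 4 the chaperones stand at 0.343, the disulfide and isomerase enzymes at 0.304 and the ERAD genes at 0.168, and on arrays 1 to 3 all 3 groups lie below 0.

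Among the ERAD genes, 7 of 9 had a mean below 0, with a median of -0.191. By their brightest probes, the membrane components Derl1, Derl2 and Sel1l were the ones that kept their direction on all 4 arrays. Derl2, a derlin of the retrotranslocation channel, had the smallest p of the 33 genes. It read 13.27, 13.24, 12.97 and 13.29 in IlrunKO, against 13.79, 13.59, 13.43 and 13.46 in WT, and every IlrunKO sample lay below every WT sample. The log2 ratios were -0.52, -0.35, -0.46 and -0.17, a mean of -0.37 ± 0.15 (0.772 of the WT level) with an adjusted p of 0.0836 (limma, 95% confidence interval -0.56 to -0.19). Of 3 Derl2 probes, a second averaged -0.41 ± 0.11 (adjusted p 0.0577 over all probes) and the third -0.22 ± 0.35, with array 4 above 0.

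Sel1l, the scaffold that holds the ubiquitin ligase Syvn1 in place, read 9.56, 9.51, 9.58 and 9.69 in IlrunKO, against 9.98, 10.41, 10.32 and 9.70 in WT. The IlrunKO samples were nearly level and all below the lowest WT sample, which was that of array 4, by a margin of 0.02 there. The mean ratio was -0.52 ± 0.39 (adjusted p 0.156). Derl1 was below 0 on every array (-0.27, -0.10, -0.31 and -0.09), with every IlrunKO level below every WT level, and averaged -0.19 ± 0.11 (adjusted p 0.197). Its dimmer probe averaged -0.08 ± 0.14 and was above 0 on array 4 (0.096). Over all tested genes, 4.2% had every IlrunKO level below every WT level; of the 33 genes, 4 did (Derl1, Derl2, Sel1l and Atf6), and 0 had every IlrunKO level above every WT level, against 4.8%. Ratios were below 0 on all 4 arrays for 6 of the 33 (these 4, Dnajb9 and Dnajc3), against 11.6% of all genes, and above 0 on all 4 for Atf6b alone, against 11.7%.

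Syvn1 (HRD1), the ligase itself, did not follow Sel1l on array 4: its ratios were -0.38, -0.77, -0.37 and 0.58. A second probe found under a Syvn1 synonym is annotated on the opposite strand and averaged 0.09 ± 0.06, so it was not taken as the same transcript. Herpud1, which brings ubiquilins to that ligase, had ratios of -0.38, -0.34, -0.07 and 0.21. Edem1 (-0.23 ± 0.34) and Edem3 (-0.13 ± 0.31), which trim mannose from misfolded glycoproteins, were below 0 on average, and Edem2 stayed near 0 (0.01 ± 0.10).

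Derl3, the third derlin, had the widest spread of levels in IlrunKO. It read 8.47, 10.39, 8.13 and 8.48 in IlrunKO, against 8.21, 8.90, 8.95 and 7.42 in WT. The IlrunKO sample of array 2 stood above all others and the WT sample of array 4 below all others. The ratios were 0.26, 1.49, -0.81 and 1.06, a mean of 0.50 ± 1.01 (adjusted p 0.510). Derl3 is known for high expression in secretory tissues such as the pancreas; on array 2, whose ratio was highest, the markers of the acinus and of plasma and B cells went both ways. Of the 4 acinar markers tested, Cela2a, an elastase, had a ratio of 0.54 there and Cela1 -0.14. Jchain, which joins immunoglobulin subunits in plasma cells, had 0.41, with its highest level of the 8 samples (7.26) in the IlrunKO sample of array 2, and Pou2af1, a B cell transcriptional coactivator, had -0.06. These 4 were chosen after their values were seen, and the part of such cells in the Derl3 ratios was not tested.

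Both translocon subunits were below 0 on arrays 1 to 3 and just above 0 on array 4. Sec61a1, the channel-forming subunit, read 12.70, 12.62, 12.69 and 12.76 in IlrunKO, against 13.13, 12.85, 12.88 and 12.67 in WT, a mean ratio of -0.19 ± 0.22 (adjusted p 0.233). Sec61b, a small subunit beside the channel, read 13.83, 13.89, 13.77 and 14.13 in IlrunKO, against 14.00, 14.10, 14.09 and 14.04 in WT, a mean of -0.15 ± 0.18 (adjusted p 0.367). In both subunits, the IlrunKO samples were the lower of the pair except on array 4. A dimmer Sec61b probe averaged -0.07 ± 0.19 and was also above 0 on array 4 alone (0.203).

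The sensors and transducers did not move as a block: 3 were below 0, 2 above, and their median was -0.000314. Atf6, the sensor that is cleaved in the Golgi to free a transcription factor, read 8.20, 8.22, 8.23 and 8.40 in IlrunKO, against 8.43, 8.65, 8.88 and 8.58 in WT. The groups did not overlap, the ratios were -0.23, -0.43, -0.65 and -0.17, and the mean was -0.37 ± 0.22 (adjusted p 0.133). Atf6b, its paralogue, went the other way on every array. It read 7.33, 7.51, 7.58 and 7.70 in IlrunKO, against 7.11, 7.37, 7.40 and 7.16 in WT, with overlap between the groups and a mean ratio of 0.27 ± 0.19 (adjusted p 0.156), or 0.452 with Agilent's processed signals (adjusted p 0.139). The Atf6b probe lies on chromosome 17, as Ilrun does, 6.90 Mb from the brighter Ilrun probe (mm9).

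Eif2ak3 (PERK), which phosphorylates eIF2alpha, read 8.74, 8.57, 8.33 and 8.52 in IlrunKO, against 8.70, 8.75, 8.92 and 8.71 in WT. The IlrunKO samples were lower on arrays 2 to 4, and the mean ratio was -0.23 ± 0.26 (adjusted p 0.235). Ern1 (IRE1alpha), whose nuclease splices Xbp1 mRNA, showed hardly any difference, reading 8.64, 8.33, 8.29 and 8.23 in IlrunKO, against 8.60, 8.40, 8.37 and 8.12 in WT (mean 0.00 ± 0.09, 95% confidence interval -0.15 to 0.15). Xbp1 itself read 14.12, 14.14, 14.21 and 14.59 in IlrunKO, against 14.71, 13.91, 14.25 and 13.67 in WT. Its ratios (-0.59, 0.23, -0.03 and 0.92) differed in sign between arrays, the mean was 0.13 ± 0.63 (adjusted p 0.776), and the spliced form was not measured apart from the whole transcript. The gap between array 4 and the mean of the other arrays was 1.05 for Xbp1, and it exceeded that only for Manf, Syvn1 and Creld2 (1.06, 1.08 and 1.17).

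**Figure D5:**
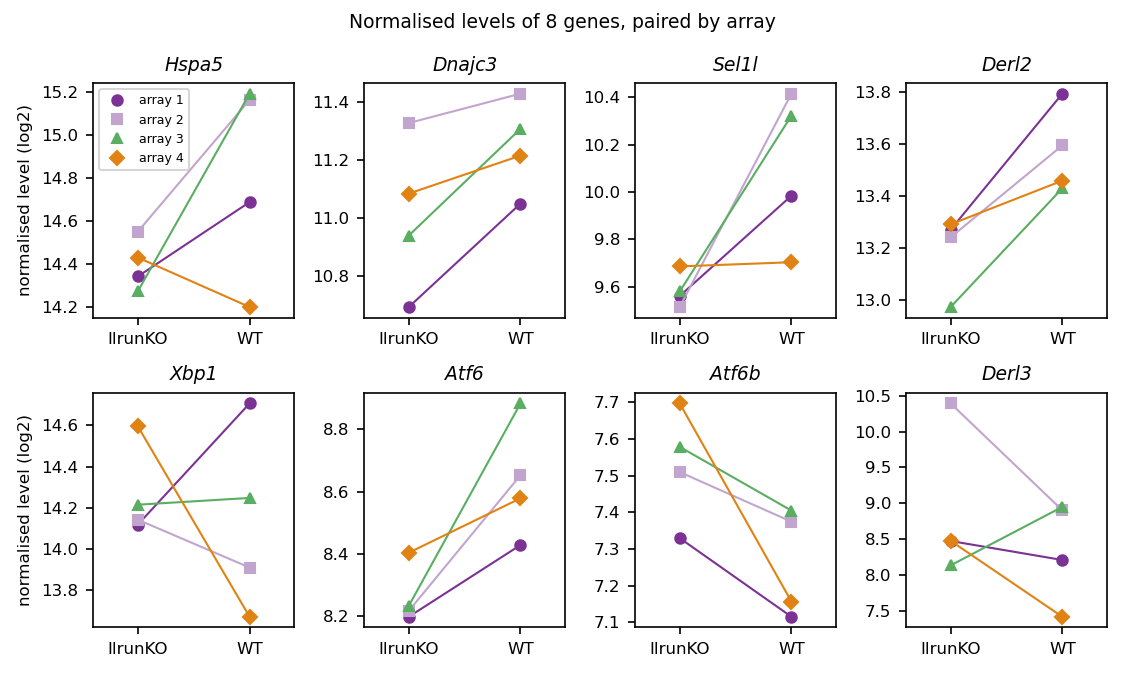
Normalised log2 level (vertical axis, own scale in each panel) of 8 genes in the IlrunKO and the WT sample of each array, joined by a line per array. Derl2 and Atf6 lines rise toward WT on all 4 arrays, Atf6b lines fall, and for Hspa5 and Xbp1 the line of array 4 runs against that of array 1.

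The genes with and without the promoter elements were set side by side on each array. The 12 with ERSE or ERSE-II had median ratios of -0.350, -0.168, -0.353 and 0.307, with 11, 11, 11 and 1 of 12 below 0. The 16 with a window but neither element had -0.0840, -0.229, -0.329 and 0.155, with 12, 14, 14 and 4 of 16 below 0. The turn on array 4 was seen in genes with and without an exact match in the window. Variant letters and sites outside the window were not searched, so these groups cannot tell the part of the elements in the turn. Outside the 33, 37 other genes had either element and 19 of them were tested. Their median ratios were 0.0735, 0.0432, -0.126 and -0.0500 on arrays 1 to 4, without the turn, and 1 of the 19 fell, Acnat2, an acyl-CoA N-acyltransferase (-0.91 ± 0.16, adjusted p 0.0351, and 0.140 without array 3 and 0.125 without array 4; the call held in 10 of 17 alternatives).

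Neighbouring pathways were read from 8 further gene lists, beside 0.62% of all genes passing as lower and 0.706% as higher. Of 14 genes of the PERK and ATF4 branch, 2 fell: Chac1, which degrades glutathione, had ratios of -1.07, -0.78, -1.09 and -0.74 (mean -0.92 ± 0.19, adjusted p 0.0351), and Atf5, a transcription factor of this branch, had -0.72, -1.04, -0.93 and -0.71 (mean -0.85 ± 0.16, adjusted p 0.0351). Both were below 0 on all 4 arrays, while Hspa5 was above 0 on array 4. Trib3, induced by ATF4 and CHOP, pointed the other way at 0.88 ± 0.37 without passing (adjusted p 0.0553; named here after its values were seen), and the list's median was -0.144. Of 17 tested genes in a list of other ER chaperones, 1 fell: Serpinh1 (Hsp47), the collagen chaperone, had -0.40, -0.39, -0.63 and -0.55 (mean -0.49 ± 0.12, adjusted p 0.0351), and the list's median was -0.0385. Stellate cells, which make collagen, had 10 of 10 markers below 0 in the same samples, beside 9 of 10 endothelial and 9 of 10 hepatocyte markers. The part of stellate cells in the Serpinh1 difference was not tested. These calls were lost without array 3 (adjusted p 0.159 for Chac1 and Atf5, 0.167 for Serpinh1) and without array 4 (0.125, 0.128 and 0.134), and that of Serpinh1 also without array 2 (0.0590), at ratios that stayed below 0. They were also lost with Agilent's processed signals (0.0618, 0.0603 and 0.0603), with median centring (0.236, 0.217 and 0.265) and with a trended robust variance (0.259 for each). Chac1, Atf5 and Serpinh1 kept their calls in 8, 8 and 7 of 17 alternatives.

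No gene passed in the other 6 lists. Their medians were -0.0265 for 15 other disulfide enzymes, 0.0375 for 14 genes of N-glycan attachment and the calnexin cycle, -0.0378 for 22 other ERAD genes, -0.0299 for 21 other translocation genes, 0.0157 for 10 other stress transducers and -0.100 for 13 genes of ER exit and retrieval. Among the smallest p in these lists were those of Tmx2 (0.29 ± 0.15) and Prdx4 (-0.37 ± 0.17), which handle thiols, of the glycoprotein factors Mlec (0.24 ± 0.08) and Prkcsh (0.17 ± 0.20), and of the ERAD ubiquitin-conjugating enzyme Ube2j1 (-0.21 ± 0.14). In the remaining lists the smallest p belonged to Srp9 (-0.30 ± 0.11) and Spcs2 (-0.27 ± 0.30) for translocation, to Creb3l1 (0.13 ± 0.13) and Tmbim6 (-0.14 ± 0.15) among the transducers, and to Sec24b (-0.15 ± 0.05) and Mia3 (0.18 ± 0.13) for ER exit. In the N-glycan list, the WT sample of array 4 held the lowest WT level for 11 of 14 genes (78.6%), against 26.3% of all genes. That share was 52.9% of other ER chaperones, 42.9% of other translocation genes, 40.9% of other ERAD genes and 40% of other disulfide enzymes. It was 35.7% for the PERK and ATF4 branch, 30% for other transducers and 23.1% for ER exit. The median ratios of the N-glycan list were -0.105 and -0.0637 on arrays 1 and 2, with IlrunKO in Cy5. They were 0.166 and 0.277 on arrays 3 and 4, with IlrunKO in Cy3. As these medians changed sign with the dye orientation, the 11 of 14 cannot tell whether the low WT sample recurred in that list. Ratios below 0 on arrays 1 to 3 and above 0 on array 4 were seen in 23.8% of other translocation genes and 21.4% of the PERK list. The remaining lists had 4.55% to 15.4%, with 7.14% in the N-glycan list, against 6.78% of all genes.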

How the data were processed

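Each channel's genotype and dye come from the labels. For every spot the authors deposited raw intensity with local background, processed intensity, and Cy5 over Cy3 as a log10 ratio, written by version 10.10.1.1 of Agilent's Feature Extraction, as the file headers record (design Agilent-026655, 44397 spots, mm9 positions). The authors' deposited value table holds log2 ratios, running as IlrunKO over WT when set against the scanner ratios; how they were corrected and normalised is not stated, and its column medians are -0.039, -0.043, 0.038 and 0.035.

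Raw intensity was reprocessed here in limma (3.58.1 under R 4.3.3): normexp with offset 50, loess within arrays (1377 control spots at weight 0), spots of a probe averaged, brightest probe per gene. A gene needed signal well above background in 3 of 4 channels of either genotype. The fit (lmFit, eBayes) had genotype and dye terms, two-sided, with Benjamini-Hochberg adjustment, and was tested on simulated data. Levels are log2 channel values after Aquantile scaling. Of 39429 probes, 26055 were named by RefSeq accession, 4125 by symbol and 9249 as in the files. All 33 genes are named, and of each pathway list those that passed or the 2 of smallest p, except 1 gene that is not reported here. The members and lists were chosen with earlier results of these data known.

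Alternatives changed the dye term, background, normalisation, filter, probe choice, variance model, channel model, threshold, and arrays left out.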

Additional observations from a re-analysis of the deposited data

Results flagged for a closer look

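Among 39 sets of 4 arrays tested for a sample far from the others (each of the 33 genes, the role groups and the 33 together), 2 were flagged, both on array 4. Chance flags about 1 in 20 such sets, so 2 of 39 is about the number that chance gives. Ppib had a log2 ratio of 0.342 on array 4, while the other arrays lay between -0.0431 and -0.00372. The median of the disulfide and prolyl isomerase enzymes was 0.304 on array 4, against values between -0.203 and -0.130 on the others. Ppib is 1 of the 6 enzymes behind that median.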

How the results depend on the processing

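In 17 alternatives, 17 of the 33 genes kept their direction throughout. None of the 33 passed except 1 with a gene's probes averaged (Dnajb11, -0.578) or at a threshold of 0.1 (Derl2) and 5 in the separate-channel model. Over all genes, 437 passed without background correction, 83 with Agilent's processed signals, 1 with median centring, 449 with the authors' deposited values, 2489 with separate channels, 1092 at a threshold of 0.1 and 0 with a trended robust variance (limma; 3555 at an unadjusted p under 0.05). Ern1 turned to 0.00164, 0.0125 and 0.0005 without background correction, with processed signals and with the deposited values, and Edem2 to -0.00845 with processed signals. Median centring turned Canx (-0.0865), Pdia4 (-0.0525), Ppib (-0.0767), Edem2 (-0.0420) and Xbp1 (-0.0191), as it moved the median of all genes to -0.0498 and that of the 33 to -0.285. In that setting 31 of 33 were below 0, against 65.0% of all genes, and 18 of 33 ratios moved by over 1.5 times. Leaving out each array, with and without the dye term, gave 1 to 450 genes over all, the median of the 33 ran from -0.259 to 0.0231 and that of the stress sensors from -0.130 to 0.0490. The ratio moved by over 1.5 times in at least 1 of these fits for 29 of 33 genes. Log2 ratios ran from -0.209 to 0.0538 for Hsp90b1, -0.189 to 0.0964 for Calr, -0.0173 to 0.0914 for Canx, -0.276 to 0.113 for Dnajb11, -0.400 to 0.0231 for Sdf2l1, -0.108 to 0.0749 for Hyou1, -0.669 to 0.0280 for Manf and -0.706 to 0.0876 for Creld2. They ran from -0.248 to 0.0927 for Pdia3, -0.147 to 0.219 for Pdia4, -0.0247 to 0.154 for Ppib, -0.506 to 0.00280 for Syvn1, -0.0322 to 0.0409 for Edem2, -0.307 to 0.0555 for Edem3, -0.130 to 0.374 for Xbp1 and -0.0496 to 0.0490 for Ern1. Of those that kept their sign, Hspa5 ran from -0.698 to -0.124, Ero1lb from -0.805 to -0.201, Edem1 from -0.419 to -0.0401, Pdia6 from -0.252 to -0.0117 and Derl3 from 0.0312 to 0.967. The cause of these changes was not tested. Separate channels called Derl2, Derl1, Sel1l, Atf6 and Atf6b at the same ratios. No paired analysis beyond the ratios was possible because each array already pairs 1 IlrunKO with 1 WT sample. The 4 arrays limit what could pass. All 33 genes were above background in every sample, yet their ratios depended on background handling: 4 moved by over 1.5 times without background correction and 6 with processed signals, among them Ero1l (-0.152 and -0.335), Hyou1 (-0.0803 and -0.132) and, with processed signals, Atf6b (0.452).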
